A study of Mus musculus with 6 samples.

Results

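Marker genes of 3 kinds of blood cell were followed in RNA of mouse hepatocyte preparations, 9 of the 48432 genes of the deposited table. They were taken by name, as markers of megakaryocytes and platelets (Pf4, Ppbp, Gp9, Gp1bb and Gp6), of mast cells or basophils (Mcpt8) and of blood progenitors (Kit, Cd34 and Gata2), and all 9 were found in the table. All samples were hepatocytes of FVB mice, and polyadenylated RNA was made into stranded libraries with a TruSeq kit. Of 3 groups of 2 samples, 1 came from adults on normal chow (normal fed), another from adults fed DDC for 4 weeks (DDC fed), and the last from embryonic day 18 (E18) livers, with about 8 embryos pooled for each sample. DDC is a compound that raises porphyrins and injures the liver. The labels used here give no sex, no age in weeks for the adults and no further genotype or treatment, and do not say whether the adult samples were separate animals, so p-values measure only the spread between these samples.

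Levels are TPM (transcript abundances), which are scaled by transcript length and to a fixed sum for each sample. Differences are on the log2(TPM + 1) scale, which understates the change of low genes, and are given with their standard error (SE) from a limma fit over all 6 samples. A gene was tested where at least 2 samples reached 1 TPM, and called where the limma p, with Benjamini-Hochberg adjustment across the 14307 tested genes, was under 0.05. Samples are numbered 0 and 1 in each group, as the table numbers its columns, and values are given in that order. Read counts were not at hand, so depth is unknown and a low value carries an unknown counting error. An exact 0 in it can be a failed estimate, since the hepatocyte genes Alb and Trf are listed at 0 in all 6 samples, and such genes are therefore called listed at 0, not absent.

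Megakaryocytes are large blood cells that release platelets. Their granules store the chemokines Pf4 and Ppbp, and their surface carries the receptor complex that binds von Willebrand factor and the collagen receptor Gp6. Kit, the receptor of stem cell factor, Cd34, a surface sialomucin, and the transcription factor Gata2 mark blood stem and progenitor cells, and Kit and Gata2 are also used by mast cells. The fetal liver is a main site of blood formation before birth, whereas the adult liver is normally not.

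The sequences just before the start sites of 4 platelet genes are shown: the chemokines Pf4 and Ppbp and the receptor subunit Gp9, the 3 highest members at E18, and the collagen receptor Gp6, which was listed at 0 in adults. Each is the 250 bases before the start in the RefSeq table (GRCm38.p6), written 5′ to 3′ on the strand of the gene, and capitals mark the GATA forms named below. The windows are chr5:90772185-90772434 on the plus strand for Pf4, chr5:90768268-90768517 on the plus strand for Ppbp, chr6:87777820-87778069 on the plus strand for Gp9, and chr7:4397745-4397994 on the minus strand for Gp6.
Pf4: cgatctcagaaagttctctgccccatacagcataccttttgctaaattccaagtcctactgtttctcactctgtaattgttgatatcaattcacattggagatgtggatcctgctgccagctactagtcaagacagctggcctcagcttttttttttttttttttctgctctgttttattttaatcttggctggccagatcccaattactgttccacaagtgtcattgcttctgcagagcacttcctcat
Ppbp: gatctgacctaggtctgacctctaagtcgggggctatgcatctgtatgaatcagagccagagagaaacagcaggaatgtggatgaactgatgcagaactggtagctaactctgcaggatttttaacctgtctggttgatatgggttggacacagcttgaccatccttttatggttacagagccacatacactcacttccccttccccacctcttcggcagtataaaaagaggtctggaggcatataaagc
Gp9: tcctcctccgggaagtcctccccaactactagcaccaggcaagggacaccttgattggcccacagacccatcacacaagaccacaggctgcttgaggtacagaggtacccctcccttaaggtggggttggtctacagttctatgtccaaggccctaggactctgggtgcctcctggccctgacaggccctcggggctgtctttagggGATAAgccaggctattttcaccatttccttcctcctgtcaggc
Gp6: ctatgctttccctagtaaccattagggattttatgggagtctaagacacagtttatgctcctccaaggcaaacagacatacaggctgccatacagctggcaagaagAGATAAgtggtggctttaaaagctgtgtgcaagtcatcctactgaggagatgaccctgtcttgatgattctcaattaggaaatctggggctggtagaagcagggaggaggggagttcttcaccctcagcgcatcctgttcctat

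Motifs, chosen after the sequences were seen, were searched on both strands in windows from 250 bases before to 50 bases after the start. GATAA, a core of sites bound by GATA factors, was in the windows of 4 of the 9 members (Pf4, Gp9, Gp6 and Cd34) and in 25.4% of the 32851 windows of the RefSeq table. In Gp9 it lay at positions -43 to -39 and in Gp6 at -143 to -139, counted from the start site, while in Pf4 it lay after the start, at 38 to 42, outside the stretch shown. Of the longer forms, AGATAA, which contains GATAA, was in 2 members (Pf4 and Gp6) and 11.2% of all windows. The form AGATAG was in Cd34 and in 8.95% of windows. The form TGATAA, which also contains GATAA, was in no member and in 9.05% of windows. The form TGATAG was in Gp1bb, on the opposite strand at -22 to -17, and in 7.29% of windows. At least 1 of these longer forms was in 4 members (Pf4, Gp1bb, Gp6 and Cd34) and in 29.8% of all windows. GGAAG, a core of sites bound by ETS factors, was in 8 of 9 members and in 71.4% of all windows. TATAAA was found in Ppbp alone among the members, at -30 to -25 and -8 to -3, and in 13.6% of all windows. Gp9 and Cd34 shared the stretch agggGATAAgccag, the longest found in a search over all pairs of member windows in both orientations. It occurred in 2 of the 32851 windows, which are those of Gp9 and Cd34 themselves. Since it was picked as the longest, nothing is read from its rarity. The upstream window of Gp1bb lies inside the Sept5 gene and is not printed. These matches describe letters and no binding was measured.

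All 9 members were higher in both E18 pools than in every adult sample. Such groups without overlap in the higher direction were seen for 69.7% of all tested genes against normal fed and 61.8% against DDC fed adults. The members' summed level was 1.61 and 0.958 TPM in normal fed adults, 7.91 and 8.86 TPM in DDC fed adults, and 1930 and 2198 TPM at E18. Gp9, Gp6 and Mcpt8 were listed at 0 in all 4 adult samples, and no member was at 0 at E18. Called counts have to be read against the whole table. At E18 against normal fed adults, 9 of 9 members and 63.0% of all tested genes were called higher, and against DDC fed adults 9 of 9 and 47.0%. No member was called lower, beside 12.7% and 17.7% of all tested genes. The filter on low values was passed by all 9, but 6 of them (Ppbp, Gp9, Gp1bb, Gp6, Mcpt8 and Gata2) passed through the E18 samples alone and so had to differ, and nothing is read from these 2 counts. The E18 p-values of these 6 genes, given below gene by gene, were partly set by the same filter and are not read as evidence either. In DDC fed against normal fed adults, 3 of 9 members were called higher (Pf4, Kit and Cd34), beside 34.2% of all tested genes, and none was called lower, beside 3.07%. That share of higher members is close to the share of all genes. The 6 members that passed only through E18 were under 1 TPM in every adult sample, however, and had little room to be called here. Nothing is therefore read from that closeness. Each group enters 2 of the 3 comparisons, so these share samples, and their counts are not independent.

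**Figure D1:**
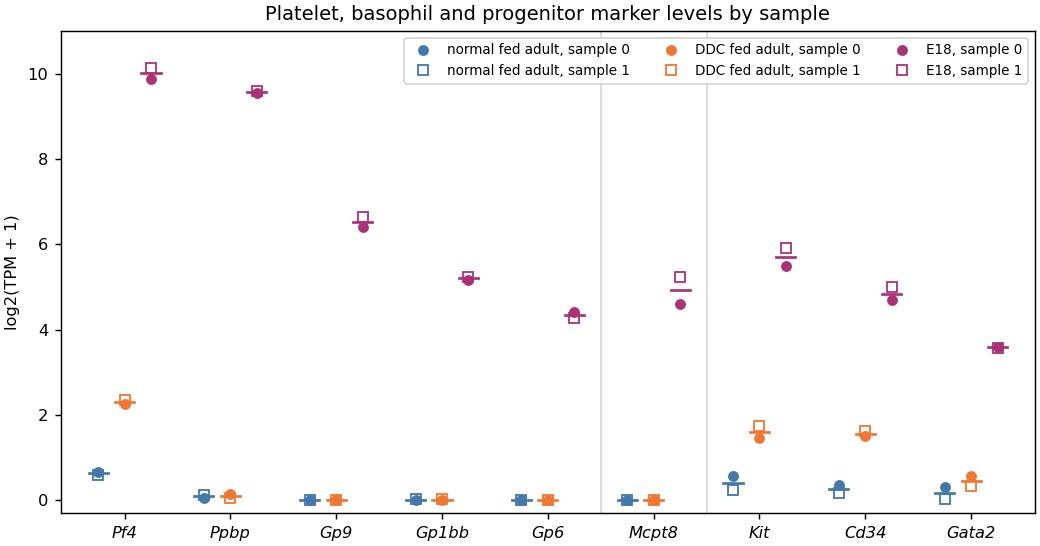
Level of each of the 9 members in each of the 6 samples, on an axis of log2(TPM + 1), with a filled circle for sample 0, an open square for sample 1, a bar for the mean of the log2 values, and a colour for each group. All E18 points lie above all adult points, and Gp9, Gp6 and Mcpt8 are listed at 0 in the 4 adult samples.

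Markers of several other cell types also differed between the groups. Hepatocyte markers were present in all samples, with a sum over 18 genes of 62398 and 44594 TPM in normal fed adults, 32118 and 30915 TPM in DDC fed adults, and 18389 and 11543 TPM at E18. Zeros that differ between groups enter these sums: beside Alb and Trf, at 0 throughout, Serpina1a was listed at 0 in both normal fed samples, Ahsg in all DDC fed and E18 samples, Fga and Fgb in both E18 samples, and Apoa1 in all adult samples, where it was 10209 and 6372 TPM at E18. Over the 11 genes above 0 in all 6 samples, a set taken after the data were seen, the sums were 44039 and 34142, then 25515 and 24668, then 7814 and 4943 TPM. The sum of 20 erythroid markers was 26.5 and 17.1, then 9.34 and 8.84, then 13250 and 24810 TPM in the same order of groups, with 10 of the 20 at 0 in both normal fed samples and 5 in both DDC fed samples. That of 20 neutrophil granule markers was 9.05 and 5.85, then 4179 and 3348, then 60918 and 72776 TPM, with 13 at 0 in both normal fed samples. The DDC fed part of that sum was almost wholly Lcn2, which injured hepatocytes also make. Endothelial markers (20 genes, none at 0) summed to 108 and 33.1, then 337 and 356, then 867 and 909 TPM, and macrophage markers (20 genes) to 215 and 160, then 1661 and 2009, then 4468 and 5729 TPM. Stellate cell markers (15 genes) summed to 36.8 and 17.0, then 483 and 429, then 411 and 372 TPM. In DDC fed adults 19 of 20 endothelial, 20 of 20 macrophage and 14 of 15 stellate genes were called higher, beside 34.2% of all tested genes. No alternative was run for the stellate list, and with only the compared groups in the fit the 19 endothelial genes became 8. The 19 became 9 and 8 without DDC fed samples 0 and 1, and 7 without either E18 sample. In the fit over all 6 samples, endothelial, macrophage and stellate markers were thus mostly called higher, like Pf4, Kit and Cd34, in DDC fed adults. No erythroid gene was called higher there and 1 was called lower, but 17 of the 19 tested erythroid genes passed the filter only through E18. Those 17 were low in adults and had little room to be called, so no contrast with the erythroid list is read. The part of these cell types in the results was not tested. In bulk RNA, fewer cells of a type and less RNA per cell cannot be told apart.

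Pf4 (platelet factor 4, ENSMUSG00000029373.7, GRCm38 chr5:90772435-90773383, plus strand) is a chemokine stored in platelet granules, and it had the highest level of the members at E18. It measured 0.584 and 0.509 TPM in normal fed adults, 3.79 and 4.12 TPM in DDC fed adults, and 943 and 1132 TPM at E18. The 3 groups did not overlap, and the samples of each group lay close together. In DDC fed adults Pf4 was higher than in normal fed adults by 1.68 ± 0.19 (log2, SE, limma adjusted p = 0.00092), a ratio of mean TPM of 7.24. At E18 it exceeded normal fed adults by 9.39 ± 0.19 (limma adjusted p = 6.3e-07) and DDC fed adults by 7.71 ± 0.19 (limma adjusted p = 1.4e-06), the latter a ratio of mean TPM of 262. Among all 48432 genes its TPM ranked 151 and 130 in the E18 samples. Pf4 was the only member whose call in DDC fed adults held in all 17 alternatives, from 0.69 to 2.65 (limma adjusted p from 0.00026 to 0.02).

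Ppbp (pro-platelet basic protein, ENSMUSG00000029372.7, chr5:90768518-90770063, plus strand) encodes the precursor of another granule chemokine. Its gene ends 2371 bases before Pf4 begins. It measured 0.0386 and 0.0943 TPM in normal fed adults, 0.0975 and 0.0319 TPM in DDC fed adults, and 744 and 774 TPM at E18. The adult groups overlapped, at levels under 0.1 TPM. The DDC fed difference was -0.00 ± 0.19 (log2, SE, limma adjusted p = 1.0), beside the rise of its neighbour Pf4; the difference between the responses of the 2 genes was not tested. At E18 Ppbp was higher by 9.48 ± 0.19 than in either adult group (limma adjusted p = 5.4e-07 against normal fed and 5.7e-07 against DDC fed). Since Ppbp passed the filter only through E18, nothing is read from these p-values. Pf4 measured 1.27 and 1.46 times the TPM of Ppbp in the E18 samples. Ranked by the log2 difference between E18 and normal fed adults, Ppbp was 31 and Pf4 was 32 of 14307 genes.

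Gp9, Gp1bb, Gp1ba and Gp5 encode the subunits of the platelet receptor for von Willebrand factor, of which Gp9 and Gp1bb are members. Gp9 (ENSMUSG00000030054.4, chr6:87778072-87779768, plus strand) was listed at 0 in the 4 adult samples, against 84.4 and 99.6 TPM at E18. Gp1bb (ENSMUSG00000050761.3, chr16:18620317-18622403, minus strand) measured 0 and 0.0200 TPM in normal fed adults, 0 and 0.0190 TPM in DDC fed adults, and 34.9 and 36.9 TPM at E18. Both were thus near the bottom of the scale in every adult sample and above 30 TPM in both E18 samples. The E18 difference from normal fed adults was 5.19 ± 0.14 for Gp1bb (log2, SE, limma adjusted p = 1.4e-06). Gp9 was called too (limma adjusted p = 1.3e-06), with no fold given against a group listed at 0. Against DDC fed adults both were called as well, Gp1bb at 5.19 ± 0.14 (limma adjusted p = 1.8e-06 for Gp1bb and 1.5e-06 for Gp9). Both genes passed the filter only through E18, and nothing is read from these E18 calls. Gp1bb is overlapped on its own strand by Sept5, which measured 0.475 and 0.726 TPM in normal fed adults, 1.03 and 1.28 TPM in DDC fed adults, and 34.8 and 42.6 TPM at E18. How reads of the shared stretch were divided is not given in the sources used here, so the level of Gp1bb is uncertain.

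The subunits that are not members had similar levels. Gp1ba, which carries the ligand-binding domain, measured 0.0143 and 0 TPM in normal fed adults, 0.0488 and 0.0356 TPM in DDC fed adults, and 35.7 and 41.8 TPM at E18. Gp5 measured 0.213 and 0.0676 TPM in normal fed adults, 0.0839 and 0.122 TPM in DDC fed adults, and 41.1 and 48.2 TPM at E18. In TPM at E18, Gp1ba was 1.02 and 1.13 times Gp1bb, Gp5 was 1.18 and 1.30 times, and Gp9 was 2.42 and 2.70 times. Gp1ba, Gp1bb and Gp5 thus lay within a factor of 1.30 of one another, and Gp9 stood above them. Neither Gp1ba nor Gp5 passed the test in DDC fed adults (0.05 ± 0.16 and -0.04 ± 0.17, limma adjusted p = 0.84 and 0.87). Both passed the filter only through E18 and had little room to be called between the adult groups, so nothing is read from this.

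Gp6 (ENSMUSG00000078810.4, chr7:4363965-4397744, minus strand), which signals when platelets meet collagen, was listed at 0 in all 4 adult samples. It measured 20.2 and 18.2 TPM at E18, the lowest level among the platelet members. It was called higher against both adult groups (limma adjusted p = 1.5e-06 against normal fed and 2e-06 against DDC fed), with no fold given against groups listed at 0. As Gp6 passed the filter only through E18, nothing is read from these calls. Ppbp measured 36.8 and 42.5 times the TPM of Gp6 in the E18 samples, so the platelet members differed widely in level among themselves at E18.

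The platelet list holds 36 genes known from megakaryocytes and platelets, 31 of them beside the members, and all 31 were tested, 19 of them only through E18, so that their E18 counts were largely set by the filter and nothing is read from them. At E18 all 31 were higher than in normal fed adults, with a median log2 difference of 5.32 beside 1.06 over all genes tested (63.0% called higher), and 30 were higher than in DDC fed adults (median 4.98 beside 0.55, with 47.0% of all genes called higher). The exception was Cd9, a tetraspanin of many cell types, at 290 and 295 TPM in DDC fed adults and 354 and 289 TPM at E18 (0.13 ± 0.25, limma adjusted p = 0.67). In DDC fed against normal fed adults 12 of 31 were higher and none lower (median 0.38 beside 0.45 over all genes, of which 34.2% were higher and 3.07% lower), and the 12 became 6 with quantile normalization. The 19 genes that passed only through E18 were low in adults and had little room to be called here. The filter thus partly set this count and median too, and no likeness to all genes is read from them. List medians include genes whose adult group is listed at 0 (against normal fed adults 7 in this list, 6 in the mast cell and basophil list and 4 in each of the progenitor and cytokine lists), whose differences depend on the pseudocount. In that comparison exon-length correction, an alternative added after the data were seen, called 3 lower.

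Of the list's most abundant genes, several are shared with other blood or tissue cells. Thbs1, a matrix protein of platelet granules, measured 0.017 and 0.00471 TPM in normal fed adults, 1.56 and 2.08 TPM in DDC fed adults, and 493 and 451 TPM at E18. Plek, a platelet and leukocyte kinase substrate, measured 0.305 and 0.164, then 3.93 and 5.44, then 196 and 188 TPM in the same order of groups, and Fermt3, an integrin activator of blood cells, 1.08 and 1.46, then 4.66 and 5.12, then 169 and 209 TPM. These 3 genes rose in DDC fed adults by 1.47 ± 0.20, 2.19 ± 0.22 and 1.38 ± 0.21 (log2, SE, limma adjusted p = 0.0017, 0.0005 and 0.0031). Itga2b, the fibrinogen receptor subunit of platelets and early megakaryocytes, measured 0.85 and 1.23 TPM in normal fed adults, 2.58 and 1.91 TPM in DDC fed adults, and 135 and 143 TPM at E18. Its DDC fed rise was 0.67 ± 0.22 (limma adjusted p = 0.049), at the edge of the threshold.

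**Figure D2:**
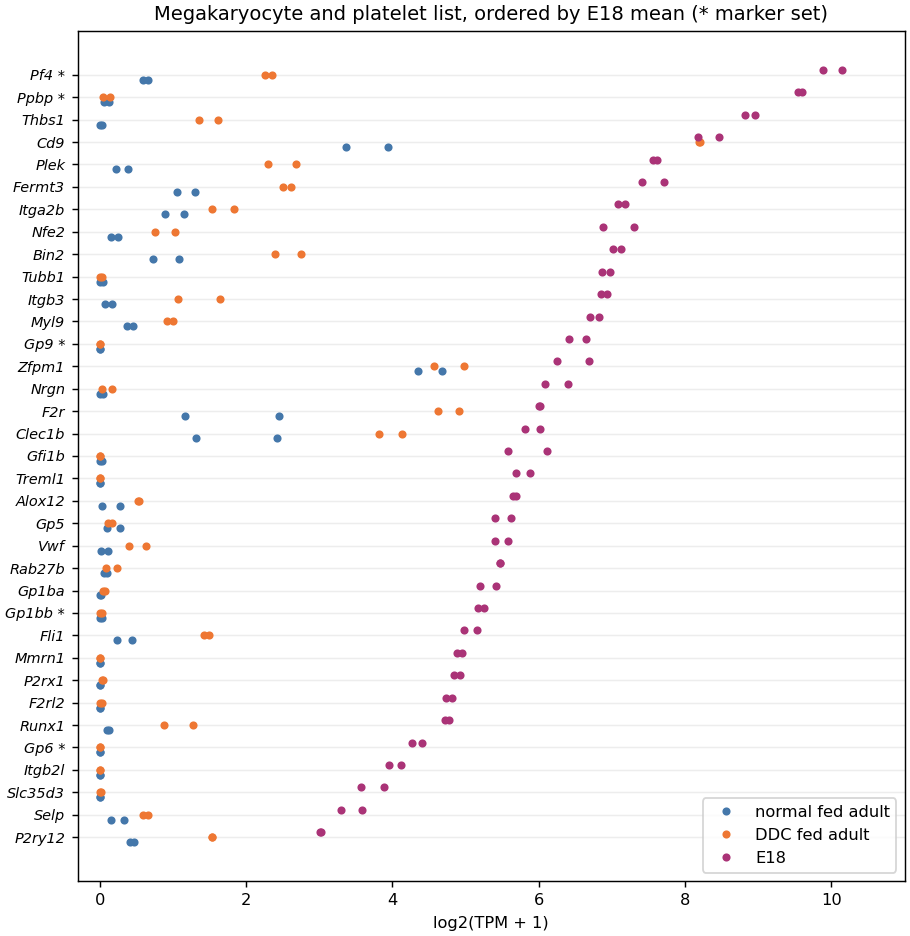
Level of 35 genes of the platelet list in each of the 6 samples, as log2(TPM + 1), with 1 point per sample, coloured and slightly offset by group, genes ordered by their E18 mean and the 5 members starred. The E18 points lie to the right of the adult points except for Cd9, where the DDC fed points (290 and 295 TPM) fall between those of E18 (354 and 289 TPM).

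Mcpt8 (mast cell protease 8, ENSMUSG00000022157.7, chr14:56082166-56085273, minus strand) encodes a granule protease that in mice marks basophils. It was listed at 0 in the 4 adult samples, against 23.4 and 37.0 TPM at E18. Among the members its E18 samples differed most, by 0.64 on the log2 scale, and still lay far above every adult sample. It was called higher against both adult groups (limma adjusted p = 3.1e-06 against normal fed and 5.4e-06 against DDC fed), with no fold given. Because Mcpt8 passed the filter only through E18, nothing is read from these calls. Mcpt8 belongs to a family of related proteases, and the handling of reads shared between relatives is not given in the sources used here.

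Genes that mast cells and basophils share, and those of each, were at different levels at E18. Prss34, another basophil protease, chosen after its values were seen, was listed at 0 in the 4 adult samples, against 12.9 and 18.6 TPM at E18, so that Mcpt8 was 1.82 and 1.99 times as high. Cpa3, a carboxypeptidase of mast cells and basophils, measured 7.54 and 9.47 TPM at E18 and at most 0.0226 TPM in adults. Ms4a2, the beta chain of the IgE receptor, measured 5.66 and 7.88 TPM, and Fcer1a, its ligand-binding chain, 0.258 and 0.328 TPM at E18, too low to be tested, both listed at 0 in adults. The chymases and tryptases of mast cells were lower still than the basophil proteases at E18, with Cma1 at 1.61 and 2.06, Tpsb2 at 0.988 and 1.83 and Mcpt4 at 0.293 and 0.151 TPM, values looked up after the others were seen. Cd200r3, a further gene of this list, measured 0.796 and 0.769 TPM at E18 and was too low to be tested. No cell type is read from these levels.

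Of the 24 other genes of the mast cell and basophil list 15 were tested, 8 of them with fewer than 2 adult samples at 1 TPM. These 8 passed only through E18, except Ltc4s, which reached 1 TPM in DDC fed sample 0 (1.68 TPM) and E18 sample 1 (1.09 TPM). All 15 were higher at E18 than in normal fed adults (median 3.24), 12 were higher than in DDC fed adults (median 2.91), and 9 were higher in DDC fed than in normal fed adults (median 0.56 beside 0.45 over all genes). Over all tested genes 63.0%, 47.0% and 34.2% were called higher in these comparisons, and nothing is read from the E18 counts, which the filter partly set. The 3 that did not pass against DDC fed adults were Il3ra, an interleukin-3 receptor chain (0.47 ± 0.18), Mitf, a transcription factor also used by other cells (0.33 ± 0.15), and Ltc4s, the leukotriene C4 synthase (-0.23 ± 0.18). The 5 most abundant genes of the list were Srgn, a granule proteoglycan, Fcer1g, a signalling chain of Fc receptors, Csf2rb, a shared cytokine receptor chain, Hdc, which makes histamine, and Alox5, which starts leukotriene synthesis. In DDC fed adults the first 4 rose by 2.54 ± 0.33, 2.73 ± 0.25, 2.38 ± 0.20 and 1.15 ± 0.17 (log2, SE, limma adjusted p = 0.0015, 0.00039, 0.0003 and 0.0029), while Alox5 did not pass (0.40 ± 0.16, limma adjusted p = 0.093). Alox5 passed the filter only through E18 and had little room to be called there. Srgn, Fcer1g and Csf2rb are also expressed by macrophages and neutrophils. With a filter of a mean of at least 5 TPM the 15, 12 and 9 became 6, 6 and 4, since fewer genes were tested. The 12 became 19 without a filter, the 9 became 5 with quantile normalization, and that normalization called 2 lower in each E18 comparison.

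Kit (ENSMUSG00000005672.12, chr5:75574916-75656722, plus strand) is the receptor of stem cell factor on progenitors and mast cells. It measured 0.471 and 0.187 TPM in normal fed adults, 1.73 and 2.34 TPM in DDC fed adults, and 44.0 and 59.0 TPM at E18. The groups did not overlap, and the levels rose in that order. The DDC fed rise was 1.19 ± 0.24 (log2, SE, limma adjusted p = 0.0087), and E18 exceeded normal fed adults by 5.30 ± 0.24 (limma adjusted p = 3.1e-06) and DDC fed adults by 4.11 ± 0.24 (limma adjusted p = 1.5e-05). The DDC fed call of Kit was lost with a pseudocount of 5 (0.40, adjusted p = 0.101), with quantile normalization (0.37, adjusted p = 0.254), without DDC fed sample 1 (1.05, adjusted p = 0.0863) and with exon-length correction (0.56, adjusted p = 0.0914), all from limma.

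Cd34 (ENSMUSG00000016494.9, chr1:194938819-194961279, plus strand) marks progenitors and also the endothelium of many vessels. It measured 0.271 and 0.131 TPM in normal fed adults, 1.82 and 2.08 TPM in DDC fed adults, and 24.8 and 31.0 TPM at E18. As for Kit, the groups did not overlap. The DDC fed rise was 1.30 ± 0.19 (log2, SE, limma adjusted p = 0.0025), and E18 was higher than normal fed adults by 4.58 ± 0.19 (limma adjusted p = 2.4e-06) and than DDC fed adults by 3.28 ± 0.19 (limma adjusted p = 1.5e-05). With quantile normalization the DDC fed call was lost (0.52, limma adjusted p = 0.0661). The antisense gene Gm16897, which overlaps Cd34, did not exceed 0.0236 TPM in any sample. At E18 Kit was 1.77 and 1.91 times as high as Cd34 in TPM.

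Gata2 (ENSMUSG00000015053.14, chr6:88193891-88207032, plus strand), a transcription factor of progenitors, megakaryocytes and mast cells, was the lowest member at E18. It measured 0.245 and 0.0159 TPM in normal fed adults, 0.472 and 0.266 TPM in DDC fed adults, and 11.02 and 10.94 TPM at E18. The adult groups did not overlap but lay close to each other, and the E18 samples were nearly equal. In DDC fed adults its difference was 0.28 ± 0.16 and was not called (log2, SE, limma adjusted p = 0.21), and its sign changed with quantile normalization (-0.19) and exon-length correction (-0.31). Adult groups that do not overlap in the higher direction were seen for 4 of 9 members (Pf4, Kit, Cd34 and Gata2), beside 62.4% of all genes tested. At E18 Gata2 exceeded normal fed adults by 3.41 ± 0.16 and DDC fed adults by 3.13 ± 0.16 (limma adjusted p = 3.6e-06 and 8.9e-06). Gata2 too passed the filter only through E18, so nothing is read from these p-values.

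**Figure D3:**
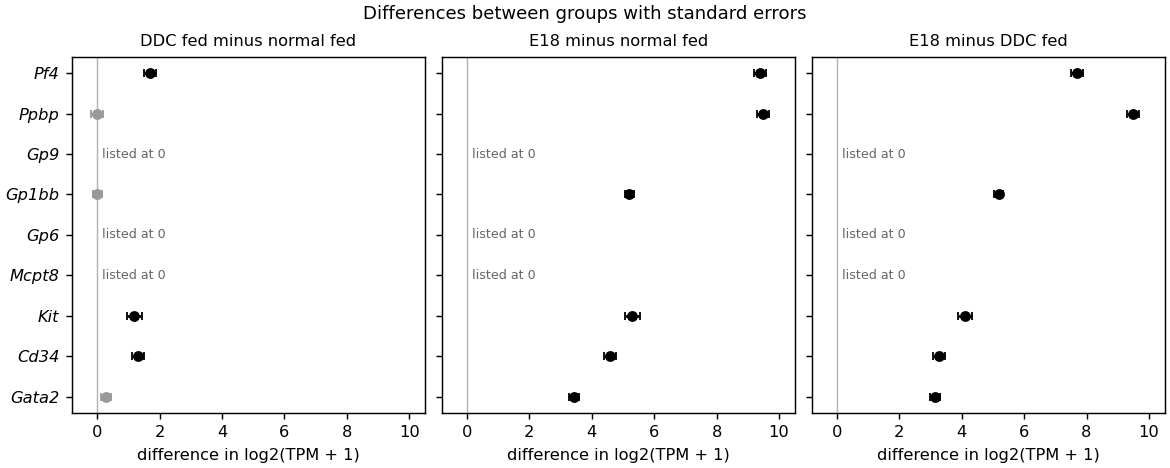
Difference of each member between groups on the log2(TPM + 1) scale, with error bars of 1 SE from the limma fit and called members in black, for the 3 comparisons, and with no point where a compared group is listed at 0. In DDC fed against normal fed adults Pf4, Kit and Cd34 are called higher, and the plotted E18 differences run from 3.13 for Gata2 against DDC fed adults to 9.48 for Ppbp.

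Of 26 other genes of the progenitor list 24 were tested, 9 only through E18. At E18, 22 of 24 were higher than in normal fed adults (median 3.73), and 21 were higher and 1 lower than in DDC fed adults (median 2.398). Over all tested genes 63.0% were higher and 12.7% lower against normal fed adults, and 47.0% and 17.7% against DDC fed adults. The filter partly set these E18 counts, and nothing is read from them. In DDC fed adults 12 of 24 were higher and none lower (median 0.64), beside 34.2% and 3.07% of all tested genes. The 12 became 7 with quantile normalization or exon-length correction, and the lower count became 3 with the latter and 2 without normal fed sample 1. At E18 against normal fed adults the lower count also became 2 without that sample, and 3 with quantile normalization. Myb, a transcription factor of immature blood cells, measured 0 and 0 TPM in normal fed adults, 0.00992 and 0.00964 TPM in DDC fed adults, and 77.0 and 96.0 TPM at E18. Flt3, a receptor of multipotent and lymphoid progenitors, was listed at 0 in normal fed adults and measured 0.16 and 0.109 TPM in DDC fed adults and 5.28 and 6.31 TPM at E18. Mecom, a factor of stem cells that other tissues use too, measured 3.37 and 2.56 TPM at E18 and at most 0.351 TPM in adults.

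Other abundant genes of that list are not restricted to blood. Lmo2, a partner of blood transcription factors, rose by 1.95 ± 0.26 in DDC fed adults (log2, SE, limma adjusted p = 0.0017) and was 6.18 ± 0.26 higher at E18 than in normal fed adults. Zfpm1, a GATA cofactor, and Tcf3, a broadly expressed factor, were 1.96 ± 0.25 and 3.45 ± 0.22 higher at E18 than in normal fed adults. The 2 genes that did not pass there were Hhex (-0.72 ± 0.55, limma adjusted p = 0.27) and Hlf (-0.63 ± 0.34, limma adjusted p = 0.13), both also factors of hepatocytes. Ly6a, a stem cell antigen also made by endothelium, measured 3.01 and 1.48 TPM in normal fed adults, 12.3 and 11.2 TPM in DDC fed adults, and 5.30 and 4.54 TPM at E18, and was lower at E18 than in DDC fed adults by -1.11 ± 0.26 (limma adjusted p = 0.0093). This single lower call became 0 without DDC fed sample 0 or without either E18 sample, 2 without either normal fed sample, and 3 with median-ratio scaling.

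The ligands of these receptors behaved differently from each other. Kitl, stem cell factor, measured 0.0882 and 0.0488 TPM in normal fed adults, 0.460 and 0.318 TPM in DDC fed adults, and 7.78 and 4.78 TPM at E18. It was 2.74 ± 0.20 higher at E18 than in normal fed adults (log2, SE, limma adjusted p = 2.7e-05) and did not pass in DDC fed adults (0.38 ± 0.20, limma adjusted p = 0.19). Kit exceeded Kitl in TPM by 5.65 and 12.3 times in the E18 samples. Thpo, thrombopoietin, the hormone of megakaryocytes that hepatocytes secrete, measured 15.4 and 10.2 TPM in normal fed adults, 14.99 and 18.6 TPM in DDC fed adults, and 7.29 and 4.28 TPM at E18. It was lower at E18 by -1.04 ± 0.31 than in normal fed and by -1.42 ± 0.31 than in DDC fed adults (limma adjusted p = 0.019 and 0.0061). Of 16 tested hepatocyte genes, 12 were also called lower at E18 in each of these comparisons, and 2 and 1 higher. Over all tested genes 12.7% and 17.7% were called lower. A relation between Thpo and the hepatocyte genes was not tested. Kitl passed the filter only through the E18 samples, so nothing is read from its higher E18 call. Its adult values were under 1 TPM and left little room for a call in DDC fed adults. The opposite directions of Kitl and Thpo between E18 and normal fed adults are therefore a description of levels only.

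In the list of 28 blood cytokines and their receptors, 23 genes were tested, 9 only through E18. At E18, 19 were higher and 2 lower than in normal fed adults (median 3.49), and 14 were higher and 3 lower than in DDC fed adults (median 2.34), while 10 were higher and none lower in DDC fed than in normal fed adults (median 0.48). Over all tested genes, 63.0% were higher and 12.7% lower in the first of these comparisons, 47.0% and 17.7% in the next, and 34.2% and 3.07% in the last. Nothing is read from the E18 counts of this list, which the filter partly set. Beside Thpo, Cxcl12, which holds progenitors in their niche, was lower at E18 than in normal fed adults by -2.00 ± 0.21 (log2, SE, limma adjusted p = 0.00015), and its receptor Cxcr4 was 6.66 ± 0.31 higher (limma adjusted p = 3.5e-06). Csf1, a macrophage growth factor, was lower at E18 than in DDC fed adults (-1.13 ± 0.30, limma adjusted p = 0.014), and its receptor Csf1r was higher (1.54 ± 0.30, limma adjusted p = 0.0038). Cxcl12 was also lower at E18 than in DDC fed adults (-1.44 ± 0.21, limma adjusted p = 0.0011). Il6st, a shared signalling receptor, and Il11ra1, the interleukin-11 receptor, did not pass in any comparison, with 47.2 and 37.2 TPM and 29.5 and 26.3 TPM at E18. The 2 lower genes became 1 without normal fed sample 0 or E18 sample 1, and the 3 became 1 without E18 sample 1 and 5 with quantile normalization or exon-length correction, which last called 3 lower in DDC fed adults.

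Levels of the members at E18 fell in the order Pf4, Ppbp, Gp9, Kit, then Gp1bb, Mcpt8 and Cd34, then Gp6 and Gata2. The sample values of Mcpt8 overlapped those of Gp1bb and Cd34, and the other neighbours did not overlap. In DDC fed adults Pf4 was highest, Kit and Cd34 overlapped below it, and Gata2 and Ppbp followed. The order thus differed between groups, with Ppbp next to Pf4 at E18 and below Gata2 in DDC fed adults.

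Between the E18 pools, 7 of 9 members were higher in sample 1, by up to 0.64 (Mcpt8) and 0.42 (Kit) on the log2 scale, and Gp6 (-0.14) and Gata2 (-0.01) were not. Over all genes tested the median difference between the pools was 0.01, with quartiles of -0.18 and 0.16. The platelet list, members included, had a median of 0.10, the mast cell and basophil list 0.20 and the progenitor list 0.11. Erythroid genes were higher in sample 1 by a median of 0.71, neutrophil granule genes by 0.33 and macrophage genes by 0.40, whereas hepatocyte genes were lower by -0.58 and eosinophil genes by -0.47. With 2 pools these differences have no test.

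**Figure D4:**
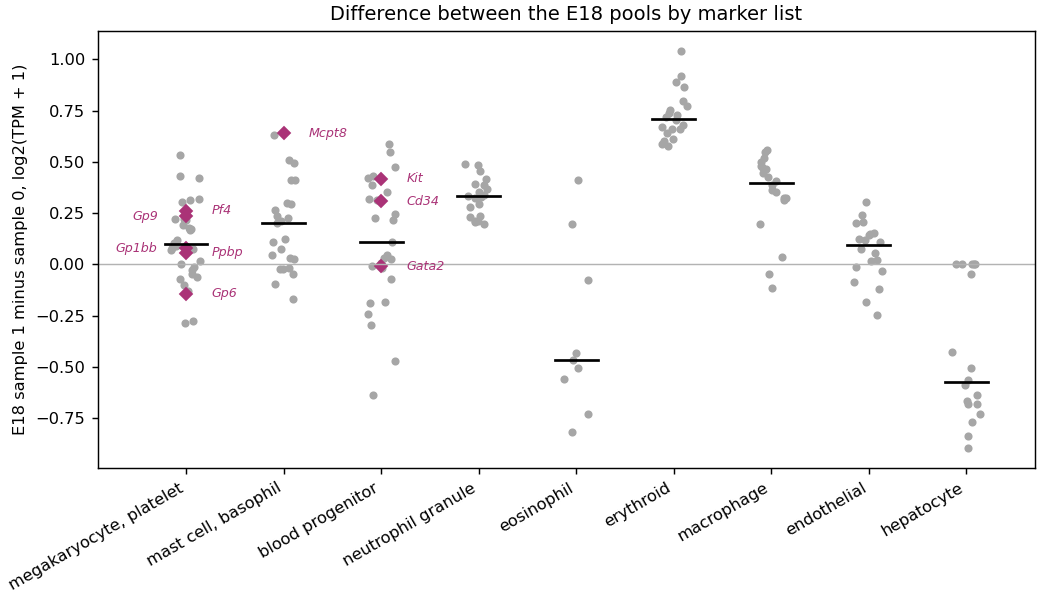
Difference between the E18 pools, sample 1 minus sample 0, on the log2(TPM + 1) scale, for the genes of each marker list, with 1 grey point per gene, a bar for the median and the 9 members as labelled diamonds. Erythroid genes lie mostly above 0 (median 0.71), hepatocyte genes mostly below (median -0.58), and the members from -0.14 (Gp6) to 0.64 (Mcpt8).

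The scale of the whole table also moved. With median-ratio scaling, the median difference over all genes went from 0.45 to -0.01 in DDC fed against normal fed adults, from 1.06 to 0.09 at E18 against normal fed adults, and from 0.55 to 0.10 at E18 against DDC fed adults, and the counts of higher and lower genes from 4896 and 439 to 2907 and 1700, from 9020 and 1815 to 5456 and 4520, and from 6723 and 2532 to 4945 and 3925. On that scale Pf4, Kit and Cd34 stayed called in DDC fed adults, at 1.38, 0.99 and 1.142 (limma adjusted p = 0.0019, 0.0167 and 0.0040). All 9 members stayed called higher at E18 in both comparisons, from 2.63 for Gata2 against DDC fed adults to 8.90 for Ppbp against DDC fed adults. For the 6 members that passed the filter only through E18, Gata2 and Ppbp among them, nothing of stability is read from this. Pf4, Kit and Cd34, which passed without E18, ran from 2.77 for Cd34 against DDC fed adults to 8.56 for Pf4 against normal fed adults. The normal fed samples differed more from each other than those of the other groups, with a median absolute difference of 0.37 over all genes, beside 0.12 in DDC fed adults and 0.17 at E18.

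The protein-coding genes whose pattern lay nearest to each member were found by the root mean square difference of log2(TPM + 1) over the 6 samples, after each gene was centred on its mean. They are a description, without a test, of patterns that E18 dominates. Nearest to Pf4 were Thbs1 (0.25), Pglyrp1 and Anxa1, to Ppbp Olfm4 (0.085), Retnlg and A2m, and to Gp9 Myb (0.052), Rgs18 and Mmp8. For Gp1bb they were Treml2 (0.035), Stk26 and Gp1ba (0.063), and for Gp6 C530008M17Rik (0.052), Grap2 and Slc6a4. Those of Mcpt8 were 6030468B19Rik (0.038), Bcl11a and Dmtn. Kit had Fam117a (0.076), Me2 and Rab27a, Cd34 had Pik3cd (0.070) and Fam49b, and Gata2 had Zcchc3 (0.096), Rab36 (0.096) and Gys1. Thbs1 and Gp1ba were the platelet list genes among them, and Pglyrp1, Retnlg and Mmp8 are granule or neutrophil genes.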

How the data were processed

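Hepatocyte RNA of 6 samples in 3 groups of 2 was analysed from the table of TPM values that the authors deposited, which holds 48432 genes with each column summing to 1000000. Per the submitters' processing notes, the tools were STAR 2.4.2a, HTSeq, Cuffdiff 2.2.1, DESeq2, Trimmomatic, Picard 1.119 and bcl2fastq 2.17.1.14, with the build GRCm38 (mm10) and no roles. Which of them made the table, and on which annotation, is not given in the sources used here. Since columns carry the numbers 0 and 1 but titles 1 and 2, a column is known by its group only. Identifiers were matched to GENCODE M21 (48053 of 48432).

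The 14307 genes that reached 1 TPM in 2 or more samples were fitted as log2(TPM + 1) with 1 mean per group with limma 3.58.1 in R 4.3.3, with variances that follow the mean, two-sided tests and Benjamini-Hochberg adjustment at 0.05. The fit was tested on simulated data. The table holds no counts, so no count model was used and the depth is unknown. Named genes were the members, the 5 highest, the lower-called and chosen role genes of 4 lists, overlapping genes and the 3 nearest genes per member, with other names marked where given; 2 genes that this rule names are not reported here, in text or plots. The members and lists were chosen with earlier results of these data known. Promoters are from RefSeq (GRCm38.p6), which held all 9 members. Alternatives were other pseudocounts, filters, scalings, thresholds, variance priors and groups in the fit, a block, each sample left out, and exon-length correction, the last added after the data were seen.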

Additional observations from a re-analysis of the deposited data

How the results depend on the processing

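At E18 the 9 higher members were 9 in both comparisons in the alternatives run, except with a mean of at least 5 TPM, where Gata2 was not tested, leaving 8; since 6 of them passed the filter only through E18, this says nothing of stability for those 6. In DDC fed against normal fed adults the 3 higher members became 1 with quantile normalization, and the 0 lower members became 1 with exon-length correction: Gp6 (-0.60, limma adjusted p = 0.0472), whose 4 adult values are all listed at 0, so that this value comes from the correction itself. Leaving out 1 sample at a time gave 2 to 3 higher members, with 2 without DDC fed sample 1, and 0 lower. For Kit and Cd34 the cause of the lost calls was not tested. The shared column numbers are not tied to a pairing in the labels. Same-numbered samples deviated together with correlations of 0.23 (normal fed and DDC fed), 0.14 (normal fed and E18) and 0.061 (DDC fed and E18), so the numbers were not taken to pair the samples. With the column number as a replicate block, 3, 9 and 9 members were higher, as without the block, and the genes called higher over the table went from 4896 to 5102, from 9020 to 9157 and from 6723 to 6801. With quantile normalization the table's higher and lower calls were 2087 and 2059 in DDC fed against normal fed adults, 4576 and 5234 at E18 against normal fed adults and 4505 and 4586 at E18 against DDC fed adults, and with exon-length correction 2532 and 1689, 4842 and 4800, and 4622 and 4545. Without counts, values under 1 TPM in the adults have no known precision.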
